A study of Mus musculus with 12 samples.

Results

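The genes described here are 33 genes of cholesterol and lipid metabolism, measured by RNA sequencing in CD8+ T cells sorted from mouse tumours. They were chosen by symbol from the deposited table of 56980 genes. All 33 were found in 1 row each, and all 33 were among the 20411 genes that passed the filter on low counts. By role they comprise 7 enzymes of the mevalonate steps, 11 of the squalene and sterol steps, 4 SREBP regulators, 3 carriers of sterol inside the cell, 5 genes of the LXR, efflux and storage branch, and 3 of fatty acid synthesis.

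The 12 libraries form 4 groups of 3. Flt3L Panc02 asGM1-positive and Flt3L Panc02 asGM1-negative cells came from tumours of Panc02, a mouse pancreatic carcinoma line, that expressed Flt3L, a growth factor for dendritic cells. Panc02 asGM1-positive and Panc02 asGM1-negative cells came from tumours of the same line without Flt3L. All mice were wild-type C57BL/6J, and all cells passed a gate for live (DAPI-), CD45.2+, CD8+ cells that was split by surface asialo-GM1 (asGM1), a sugar-bearing sphingolipid. The promoter that drives Flt3L, the age of the mice, and whether a library pools several mice are not stated in the sources used here. Nothing in the labels ties replicates to separate animals, so p-values measure only the spread between these libraries, which may be technical.

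Library totals lay between 98663008 and 102896605 counts, and the lowest value of any of the 33 in any library was 162 counts, or 1.68 CPM, that is, counts scaled to a common library size. Between libraries of the same group Spearman's rho over genes was 0.973 to 0.983, and between groups it was 0.942 to 0.978. The 8 T cell markers summed to 9238 CPM or more in every library, with Cd8a at 1570 CPM or more. The B cell genes Cd79a, Ms4a1 and Pax5 were at 0 in at least 1 library and never above 0.436 CPM, whereas Cd79b, the partner chain of Cd79a, ran from 5.04 to 35.7 CPM. Cd79b had 8.14 to 12.5 CPM in Flt3L Panc02 asGM1-positive libraries, against 23.0 to 35.7 CPM in Flt3L Panc02 asGM1-negative libraries, and 5.04 to 5.59 CPM in Panc02 asGM1-positive libraries, against 12.3 to 15.8 CPM in Panc02 asGM1-negative libraries. Markers of macrophages, dendritic cells, fibroblasts, dividing cells and CD4+ and regulatory T cells differed between groups and are given beside the results they move with.

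In the mevalonate pathway acetyl-CoA is built up to isoprenoid diphosphates, which are joined to squalene and closed and trimmed to cholesterol. When the membranes of the endoplasmic reticulum run low in sterol, SCAP carries the transcription factor SREBP2 to be cleaved, and the freed factor switches on most of these enzymes. INSIG proteins hold it back when sterol is plentiful, and LXR, a receptor for oxidised sterols, then raises the pumps that export cholesterol. T cells are known to switch on the SREBP programme when they are activated and to need it for growth and division.

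The promoters of several of these enzymes are shown because their levels moved together between tumours. Sequences were taken from RefSeq (GRCm38.p6) for 26 of the 33 genes, as the 250 bases before the start of the first listed transcript. A motif for SREBP, TCACNCCAC, and the CCAAT box, to which the factor NF-Y binds and which often lies beside SREBP sites, were searched on both strands. No match of one overlapped a match of the other. The bases next to the start are shown for the genes with lower levels in Flt3L Panc02 tumours that had an entry, and for Mylip, which was higher there. Capitals mark CCAAT or its complement ATTGG and, in Hmgcs1 alone, the SREBP motif.
Hmgcs1: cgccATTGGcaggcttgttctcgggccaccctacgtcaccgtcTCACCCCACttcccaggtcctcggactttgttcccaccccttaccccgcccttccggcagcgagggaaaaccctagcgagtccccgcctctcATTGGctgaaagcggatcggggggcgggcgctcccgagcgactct
Idi1: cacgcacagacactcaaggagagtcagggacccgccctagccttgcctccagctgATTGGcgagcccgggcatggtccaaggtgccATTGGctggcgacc
Cyp51: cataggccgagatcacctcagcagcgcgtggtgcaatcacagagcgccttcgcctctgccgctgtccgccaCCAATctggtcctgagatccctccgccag
Msmo1: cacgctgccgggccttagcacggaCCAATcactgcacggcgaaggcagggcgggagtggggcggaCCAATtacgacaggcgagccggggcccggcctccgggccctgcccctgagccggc
Hsd17b7: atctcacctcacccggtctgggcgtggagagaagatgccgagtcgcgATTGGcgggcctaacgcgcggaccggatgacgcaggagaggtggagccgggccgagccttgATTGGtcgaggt
Sc5d: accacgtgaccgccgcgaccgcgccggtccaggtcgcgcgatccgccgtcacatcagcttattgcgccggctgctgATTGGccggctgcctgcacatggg
Mylip: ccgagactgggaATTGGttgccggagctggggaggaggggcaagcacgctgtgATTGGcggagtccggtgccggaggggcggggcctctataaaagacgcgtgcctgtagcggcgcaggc

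These stretches lie at chr13:119690171-119690350 on the plus strand for Hmgcs1, chr13:8885506-8885605 on the plus strand for Idi1, and chr5:4104698-4104797 on the minus strand for Cyp51. Those of Msmo1 (chr8:64733579-64733698), Hsd17b7 (chr1:169969206-169969325) and Sc5d (chr9:42264301-42264400) lie on the minus strand, and that of Mylip (chr13:45389622-45389741) on the plus strand. A CCAAT box stood in 13 of the 15 promoters of mevalonate and sterol enzymes with an entry, or 86.7%. It also stood in 7 of the 11 promoters of the other genes described here with an entry, or 63.6%. The 7 include Mylip, which was higher in Flt3L Panc02 tumours. The share was 34.5% among the 27025 genes with a promoter in the table, the first listed promoter of each. That last set was not limited to the genes tested here. The box stood in 6 of the 6 promoters of enzymes called lower in asGM1-positive cells. Among the other enzymes it stood in 7 of the 9 promoters. The SREBP motif stood in 1 of the 15, that of Hmgcs1, with its first base 137 bases before the start, and in 1.04% of those of all genes. A match is a description of the letters and not a binding site. Nor does a miss show that a site is absent, since 1 form of the SREBP motif was searched and the 50 bases after the start were left out. Sqle, Fdps, Fdft1, Npc1, Stard4, Abcg1 and Scd2 had no entry.

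In asGM1-positive cells, enzymes of cholesterol synthesis were lower in Flt3L Panc02 than in Panc02 tumours, while the efflux pump gene Abcg1 was higher. Of the 33 genes 8 were called lower and 1 higher (quasi-likelihood test of edgeR, adjusted p under 0.05 by Benjamini-Hochberg over 20411 genes). Among all genes 6.25% were called in this comparison, 4.2% lower and 2.05% higher. All 8 lower genes belonged to the 18 mevalonate and sterol enzymes, of which 16 had a negative log2 fold change. Their median log2 fold change was -0.55, beside -0.03 over all genes tested. In these bulk samples, fewer cells of a type and less RNA per cell cannot be told apart.

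**Figure D1:**
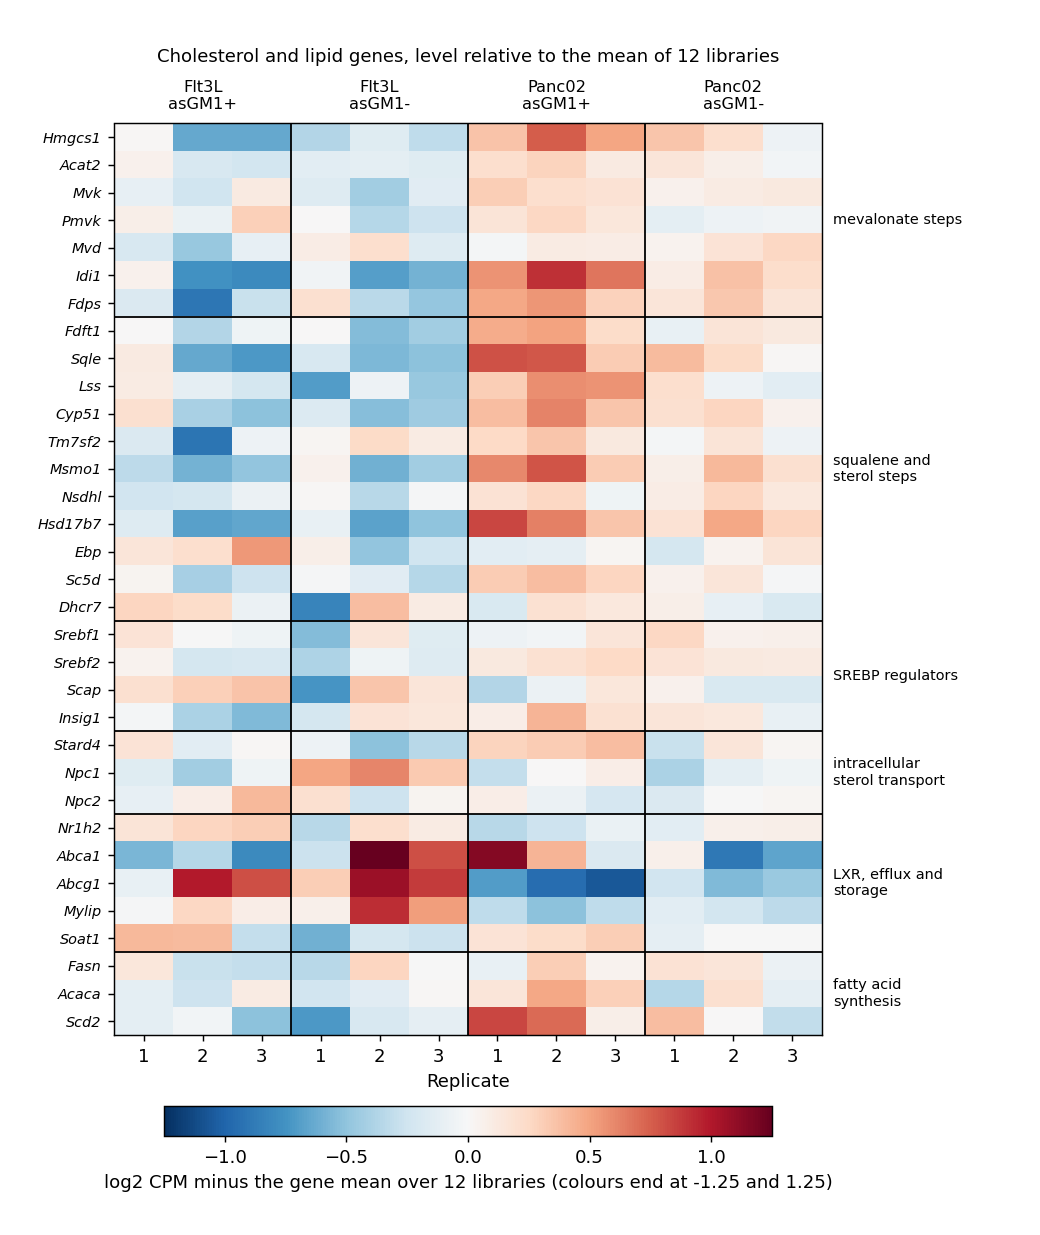
Level of each of the 33 genes (rows, by role) in each of the 12 libraries (columns, by group and replicate), as log2 CPM minus the gene's mean over the 12 libraries. Most of the rows of mevalonate and sterol steps are blue in replicates 2 and 3 of the Flt3L Panc02 groups and red in the Panc02 columns. In Flt3L Panc02 replicate 1 these rows are mixed, with a median of 0.02 in asGM1-positive and -0.03 in asGM1-negative cells. Ebp and Dhcr7 are among the rows that do not follow, and the Abcg1 row runs the opposite way.

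Among the mevalonate steps, Hmgcs1 (ENSMUSG00000093930), which makes HMG-CoA, had 49.5, 31.3 and 31.4 CPM in Flt3L Panc02 asGM1-positive libraries, against 62.6, 82.6 and 68.8 CPM in Panc02 asGM1-positive libraries. The groups did not overlap, and replicate 1 of the Flt3L Panc02 group was the closest to the Panc02 values. Its log2 fold change was -0.93 ± 0.19 (SE; edgeR adjusted p = 0.0181). Idi1, the isomerase that provides the reactive isoprene unit, had 26.7, 15.3 and 14.8 CPM in Flt3L Panc02 asGM1-positive libraries, against 38.2, 48.7 and 41.1 CPM in Panc02 asGM1-positive libraries. Again every Flt3L Panc02 library lay below every Panc02 library, with replicate 1 highest of its group, and the log2 fold change of -1.17 ± 0.24 (SE) was the largest decrease among the called genes (edgeR adjusted p = 0.0188). Fdps, the synthase of farnesyl diphosphate, had 135.1, 81.9 and 126.1 CPM in Flt3L Panc02 asGM1-positive libraries, against 214.5, 223.4 and 186.8 CPM in Panc02 asGM1-positive libraries. Replicate 2 was the low one in its Flt3L Panc02 group, no values overlapped, and the log2 fold change was -0.86 ± 0.20 (SE; edgeR adjusted p = 0.032).

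The other 4 mevalonate enzymes did not pass the test. Acat2, which starts the pathway by making acetoacetyl-CoA, had a log2 fold change of -0.33 ± 0.10 (SE; edgeR adjusted p = 0.0813). The kinase Mvk and the decarboxylase Mvd had values of -0.30 ± 0.12 and -0.31 ± 0.13 on that scale, and the kinase Pmvk had -0.08 ± 0.12. Except for Pmvk, all libraries of the Flt3L Panc02 group lay below those of the Panc02 group for each of these genes too.

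Of the squalene and sterol steps 5 of 11 were called lower. Sqle, squalene epoxidase, a rate-controlling oxygen-dependent step, had 52.3, 31.0 and 29.5 CPM in Flt3L Panc02 asGM1-positive libraries, against 84.0, 83.0 and 60.3 CPM in Panc02 asGM1-positive libraries. Replicate 1 was again the highest of the Flt3L Panc02 group, the groups did not overlap, and the log2 fold change was -1.01 ± 0.22 (SE; edgeR adjusted p = 0.0241). Cyp51, which removes a methyl group from lanosterol, had 83.0, 54.6 and 50.6 CPM in Flt3L Panc02 asGM1-positive libraries, against 94.5, 111.3 and 92.2 CPM in Panc02 asGM1-positive libraries. Its groups did not overlap either, and at -0.66 ± 0.18 (log2 fold change ± SE) it stood closest to the threshold (edgeR adjusted p = 0.0482).

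Msmo1, the methylsterol monooxygenase, had the smallest adjusted p of the 33 genes. It had 27.2, 22.7 and 24.2 CPM in Flt3L Panc02 asGM1-positive libraries, against 51.9, 58.8 and 42.6 CPM in Panc02 asGM1-positive libraries. The Flt3L Panc02 values were close together and all below the Panc02 values, at -1.05 ± 0.18 (log2 fold change ± SE; edgeR adjusted p = 0.00971). Hsd17b7, a sterol ketone reductase, had 15.9, 11.1 and 11.3 CPM in Flt3L Panc02 asGM1-positive libraries, against 31.8, 27.5 and 22.7 CPM in Panc02 asGM1-positive libraries. The groups stood apart with replicate 1 high in each, and the log2 fold change was -1.10 ± 0.20 (SE; edgeR adjusted p = 0.0122). Sc5d, a sterol desaturase, had 53.6, 39.3 and 43.9 CPM in Flt3L Panc02 asGM1-positive libraries, against 65.5, 68.4 and 63.4 CPM in Panc02 asGM1-positive libraries. Its Panc02 values were tightly grouped above all the others, with a log2 fold change of -0.53 ± 0.13 (SE; edgeR adjusted p = 0.0358).

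**Figure D2:**
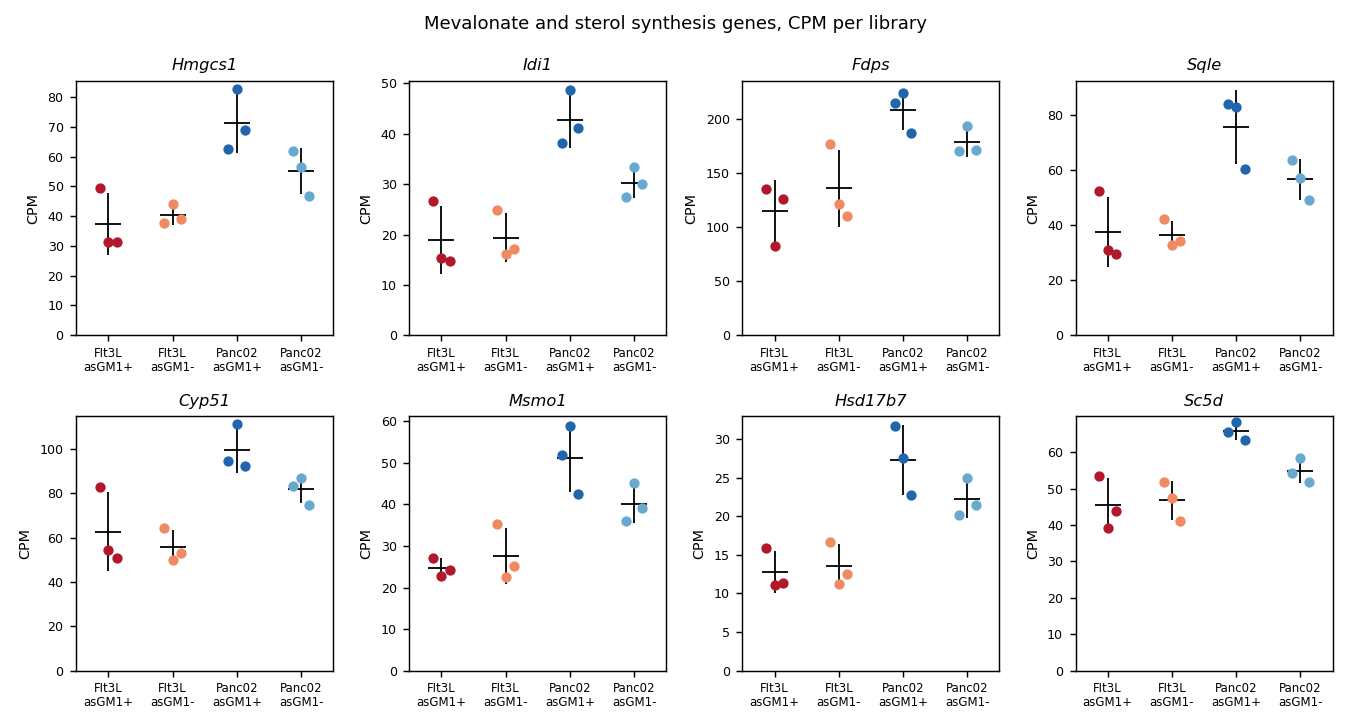
CPM of the 8 mevalonate and sterol enzymes called lower in asGM1-positive cells, by library (points), with the mean and SD (bars) of each group of 3. In every panel the 3 Flt3L asGM1+ libraries lie below the 3 Panc02 asGM1+ libraries; for Hmgcs1 they run up to 49.5 CPM, against at least 62.6 CPM.

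Squalene synthase, Fdft1, had a log2 fold change of -0.53 ± 0.16 (SE; edgeR adjusted p = 0.0668), and lanosterol synthase, Lss, -0.56 ± 0.17 (edgeR adjusted p = 0.069). The sterol reductase Tm7sf2 had -0.58 ± 0.22 and the dehydrogenase Nsdhl -0.31 ± 0.13 on the same scale, and neither passed the test. A pair of enzymes had positive values. Ebp, the sterol isomerase, had 139.5, 145.5 and 182.6 CPM in Flt3L Panc02 asGM1-positive libraries, against 115.0, 116.5 and 128.2 CPM in Panc02 asGM1-positive libraries. These values did not overlap in the opposite direction, at a log2 fold change of 0.38 ± 0.16 (SE; edgeR adjusted p = 0.163). Dhcr7, the reductase that makes cholesterol in the closing step, overlapped between the groups at 0.10 ± 0.24.

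Over the 18 mevalonate and sterol enzymes, 15 had all Flt3L Panc02 asGM1-positive libraries below all Panc02 asGM1-positive libraries, 1 had them above and 2 overlapped. Among all genes tested, 16.5% were separated with the Flt3L Panc02 libraries lower and 14.2% with them higher. Summed over the 18 enzymes, the level was 907, 715 and 823 CPM in Flt3L Panc02 asGM1-positive libraries, against 1129, 1227 and 1076 CPM in Panc02 asGM1-positive libraries. The lowest Panc02 sum was above the highest Flt3L Panc02 sum.

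The calls depended on single libraries and on the spread that the groups share. Without Flt3L Panc02 asGM1-positive replicate 2, 0 of the 33 genes were called, and without replicate 3 of that group 2 were, Msmo1 and Abcg1. Without Panc02 asGM1-positive replicate 1 or 2, 5 and 3 were called. Fitted without the other groups, these 6 libraries gave 0 calls among the 33, and 1 call over all genes. DESeq2 called 15 of the 33 and 2979 genes in all, and limma-voom 22 of the 33 and 3120 in all. The direction of the 9 called genes was the same in every one of these runs.

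Markers of other cell types differed in this comparison too. The 12 macrophage and monocyte markers summed to 458 to 684 CPM in Flt3L Panc02 asGM1-positive libraries, against 554 to 1942 CPM in Panc02 asGM1-positive libraries, and 2 of the 12 were called lower and 0 higher. The 6 fibroblast markers summed to 20.3 to 33.9 CPM, against 31.7 to 172.7 CPM, with 2 of 6 called lower, and the 6 tumour epithelial markers to 15.3 to 18.2 CPM, against 35.0 to 105.1 CPM. Of those epithelial markers 4 were tested, with 2 called lower and 1 higher, while Krt7, Krt19 and Cldn4 were at 0 in at least 1 library. The 16 dividing-cell markers summed to 4004 ± 575 CPM, against 4515 ± 350 CPM (SD, n = 3 each), with 2 of 16 called lower. In the other direction, the 8 T cell markers summed to 12460 to 15860 CPM, against 9238 to 10960 CPM, with 4 of 8 called higher. The 5 markers of CD4+ and regulatory T cells summed to 279.3 to 540.9 CPM, against 158.1 to 248.6 CPM, with 2 of 5 called higher. Ctla4 weighed most in that sum, at 130 to 502 CPM over all libraries, and no other of the 5 exceeded 72.7 CPM. The sum can differ from its members. Between gates in Flt3L Panc02 tumours it was 419.4 CPM in asGM1-positive libraries, against 346.2 CPM, though 3 of 5 were called lower and 0 higher. The part of these cell types in the lower enzyme levels and in the higher Abcg1 was not tested.

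The regulators of the pathway did not pass the test in this comparison. Insig1, both a brake on SREBP and a target of it, had 26.6, 20.5 and 18.4 CPM in Flt3L Panc02 asGM1-positive libraries, against 28.6, 36.1 and 30.8 CPM in Panc02 asGM1-positive libraries. The groups did not overlap, and its log2 fold change was -0.55 ± 0.16 (SE; edgeR adjusted p = 0.0692). Srebf2, which encodes SREBP2, had 228.0, 190.3 and 192.7 CPM in Flt3L Panc02 asGM1-positive libraries, against 241.4, 253.3 and 263.3 CPM in Panc02 asGM1-positive libraries. This too was a separation without overlap, at -0.31 ± 0.11 (edgeR adjusted p = 0.0979). Srebf1, whose product acts more on fatty acid genes, had 0.02 ± 0.15, and Scap, the escort protein, 0.37 ± 0.22. Scap was separated in the opposite direction, at 106.9 to 118.5 CPM in Flt3L Panc02 asGM1-positive libraries, against 72.1 to 102.6 CPM in Panc02 asGM1-positive libraries.

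Abcg1, a pump that passes cholesterol to lipoprotein particles and a textbook LXR target, was the called gene that was higher. It had 21.2, 45.1 and 39.6 CPM in Flt3L Panc02 asGM1-positive libraries, against 13.9, 11.7 and 10.9 CPM in Panc02 asGM1-positive libraries. Even the lowest Flt3L Panc02 library, replicate 1, was above all Panc02 libraries, and the log2 fold change was 1.54 ± 0.26 (SE; edgeR adjusted p = 0.0103). Abca1, another LXR-driven pump, differed from it in sign, with 2.11, 2.46 and 1.80 CPM in Flt3L Panc02 asGM1-positive libraries, against 7.0, 4.21 and 2.77 CPM in Panc02 asGM1-positive libraries. All Flt3L Panc02 values were the lower ones, but the Panc02 libraries spread widely and the log2 fold change of -1.14 ± 0.42 did not pass (edgeR adjusted p = 0.128). Abca1 was highest in Panc02 asGM1-positive replicate 1, the library with the highest macrophage marker sum, 1942 CPM, and lowest of its group in replicate 3, with 554 CPM. Tumour epithelial, neutrophil and conventional dendritic cell sums had the same order there. Among Panc02 asGM1-negative libraries replicate 1 was highest for Abca1 and for the macrophage sum. In Flt3L Panc02 asGM1-positive libraries Abca1 was lowest in replicate 3, where the macrophage sum was highest, at 684 CPM. In Flt3L Panc02 asGM1-negative libraries it was highest in replicate 2, where that sum was lowest, at 264 CPM. The part of these cell types in Abca1 was not tested.

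Nr1h2, which encodes LXR-beta, had 154.8, 166.7 and 171.3 CPM in Flt3L Panc02 asGM1-positive libraries, against 109.1, 115.9 and 130.8 CPM in Panc02 asGM1-positive libraries. The Flt3L Panc02 libraries were all the higher ones, at a log2 fold change of 0.47 ± 0.14 (SE; edgeR adjusted p = 0.0632). Mylip, a ubiquitin ligase that marks lipoprotein receptors for breakdown and is another LXR target, had 0.49 ± 0.19 (edgeR adjusted p = 0.135). Soat1, which esterifies cholesterol for storage, overlapped between the groups at -0.04 ± 0.17.

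Neither the carriers of sterol nor the fatty acid enzymes were called in asGM1-positive cells. Npc1 and Npc2, which bring cholesterol out of lysosomes, had log2 fold changes of -0.14 ± 0.15 and 0.20 ± 0.15 (SE), and Stard4, a cytosolic sterol carrier, -0.31 ± 0.14. Scd2, which puts a double bond into fatty acids, had 118.5, 126.0 and 90.2 CPM in Flt3L Panc02 asGM1-positive libraries, against 229.0, 210.0 and 135.3 CPM in Panc02 asGM1-positive libraries. Replicate 3 was the lowest in both groups, there was no overlap, and the log2 fold change was -0.78 ± 0.24 (edgeR adjusted p = 0.0727). Fasn, fatty acid synthase, had -0.23 ± 0.17 and Acaca, acetyl-CoA carboxylase, -0.40 ± 0.16.

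**Figure D3:**
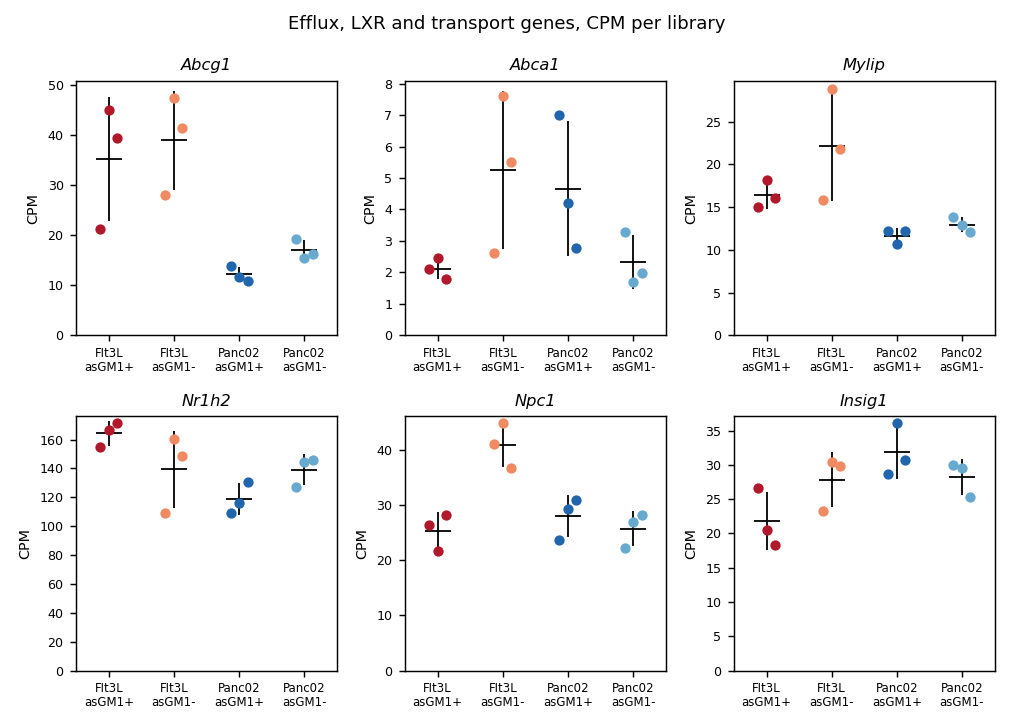
CPM of 6 genes of cholesterol efflux, LXR, lysosomal export and SREBP control, by library (points), with the mean and SD (bars) of each group of 3. Abcg1 is higher in all 6 Flt3L Panc02 libraries (21.2 CPM or more) than in all 6 Panc02 libraries (19.2 CPM or less), and Npc1 is highest in Flt3L asGM1- cells.

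In asGM1-negative cells the same comparison of tumours called 3 of the 33 genes, all higher in Flt3L Panc02 tumours: Abcg1, Npc1 and Mylip. Among all genes 3.7% were called, 1.86% higher and 1.84% lower. None of the 18 mevalonate and sterol enzymes was called in the main fit of edgeR. Of the 18, 9 had an unadjusted p under 0.05 there, as 4137 of the 20411 genes tested did. DESeq2 called 4 lower and limma-voom 8 lower, beside 1160 and 1698 genes called lower over all genes tested. When these 6 libraries were fitted without the other groups, edgeR called Cyp51 and Sqle lower, beside 428 genes lower in all. With an effect for replicate number in the fit, edgeR called Hsd17b7 and Sqle lower, beside 367 genes lower in all. By sign 16 of the 18 enzymes were negative, with a median log2 fold change of -0.35, beside 0.00 over all genes tested.

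Abcg1 had 28.1, 47.5 and 41.5 CPM in Flt3L Panc02 asGM1-negative libraries, against 19.2, 15.4 and 16.4 CPM in Panc02 asGM1-negative libraries. Replicate 1 of the Flt3L Panc02 group was low within its group but above all Panc02 libraries, and the log2 fold change was 1.20 ± 0.26 (SE; edgeR adjusted p = 0.0331). Npc1, the lysosomal exporter, had 41.1, 44.8 and 36.7 CPM in Flt3L Panc02 asGM1-negative libraries, against 22.2, 26.9 and 28.1 CPM in Panc02 asGM1-negative libraries. The groups lay well apart, at 0.67 ± 0.15 (edgeR adjusted p = 0.035). Mylip had 15.9, 28.9 and 21.8 CPM in Flt3L Panc02 asGM1-negative libraries, against 13.8, 12.9 and 12.1 CPM in Panc02 asGM1-negative libraries. Its Flt3L Panc02 values were scattered but all higher, at 0.78 ± 0.19 (edgeR adjusted p = 0.0453).

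These 3 calls were lost with no filter on low counts, without both Panc02 libraries numbered 1, and in 5 of 6 runs that left out 1 library, the exception being the run without Flt3L Panc02 asGM1-negative replicate 1, where 6 genes were called. A fit to these libraries without the other groups called Abcg1 but not Npc1 or Mylip. For Abcg1 the log2 fold change lay between 1.03 and 1.39 over all settings tried. Dendritic cell markers were also higher in these Flt3L Panc02 libraries: the 10 plasmacytoid markers summed to 1008 ± 65 CPM, against 344 ± 25 CPM, with 5 of 10 called higher, and the 7 conventional ones to 112.4 ± 5.8 CPM, against 47.9 ± 9.9 CPM, with 3 of 7 called higher (SD, n = 3 each). Of the plasmacytoid markers Spib, Cox6a2 and Smim5 were at 0 in at least 1 library, as was Cd209a of the conventional ones. Their part in the levels of Npc1, Abcg1 and Mylip was not tested.

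Among the enzymes, Hsd17b7 came closest to a call in asGM1-negative cells. It had 16.7, 11.2 and 12.6 CPM in Flt3L Panc02 asGM1-negative libraries, against 20.2, 24.9 and 21.5 CPM in Panc02 asGM1-negative libraries. The groups did not overlap, and the log2 fold change was -0.72 ± 0.20 (SE; edgeR adjusted p = 0.0661). Idi1 had -0.64 ± 0.23, Sqle -0.64 ± 0.22 and Cyp51 -0.55 ± 0.18 on that scale, and Msmo1 (-0.54 ± 0.18), Hmgcs1 (-0.45 ± 0.19), Fdps (-0.39 ± 0.20) and Sc5d (-0.23 ± 0.13) were smaller. Of these 8 genes, 7 had all Flt3L Panc02 libraries below all Panc02 libraries, and Fdps overlapped because Flt3L Panc02 replicate 1 had 176.2 CPM, against 170.0 to 193.2 CPM in Panc02 asGM1-negative libraries.

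Over the 18 enzymes, 10 were separated with the Flt3L Panc02 asGM1-negative libraries lower and 0 with them higher, where 12.9% and 13.8% of all genes were. Their summed level was 861, 722 and 713 CPM in Flt3L Panc02 asGM1-negative libraries, against 955, 1019 and 947 CPM in Panc02 asGM1-negative libraries. Even the closest library, Flt3L Panc02 replicate 1, was below the Panc02 sums. The dividing-cell markers were lower in this comparison as well, at 2800 ± 231 CPM, against 4076 ± 112 CPM (SD, n = 3 each), with 9 of 16 called lower. The macrophage and monocyte markers summed to 264 to 431 CPM, against 484 to 786 CPM, with 0 of 12 called. The tumour epithelial markers summed to 17.8 to 20.3 CPM, against 31.5 to 46.2 CPM, with 2 of the 4 tested called lower and 1 higher, and the fibroblast markers to 7.75 to 50.6 CPM, against 31.4 to 76.3 CPM, with 2 of 6 called lower. The part of these cell types in the enzyme levels was not tested.

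Srebf2 had 169.8, 213.2 and 198.2 CPM in Flt3L Panc02 asGM1-negative libraries, against 249.2, 240.8 and 239.4 CPM in Panc02 asGM1-negative libraries. All Flt3L Panc02 values were lower, at a log2 fold change of -0.33 ± 0.11 (SE; edgeR adjusted p = 0.108). Insig1 was at -0.02 ± 0.16, and its groups overlapped. Abca1, with 2.61, 7.62 and 5.52 CPM in Flt3L Panc02 asGM1-negative libraries, against 3.29, 1.69 and 1.98 CPM in Panc02 asGM1-negative libraries, overlapped at replicate 1 and had 1.18 ± 0.42 (edgeR adjusted p = 0.145).

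**Figure D4:**
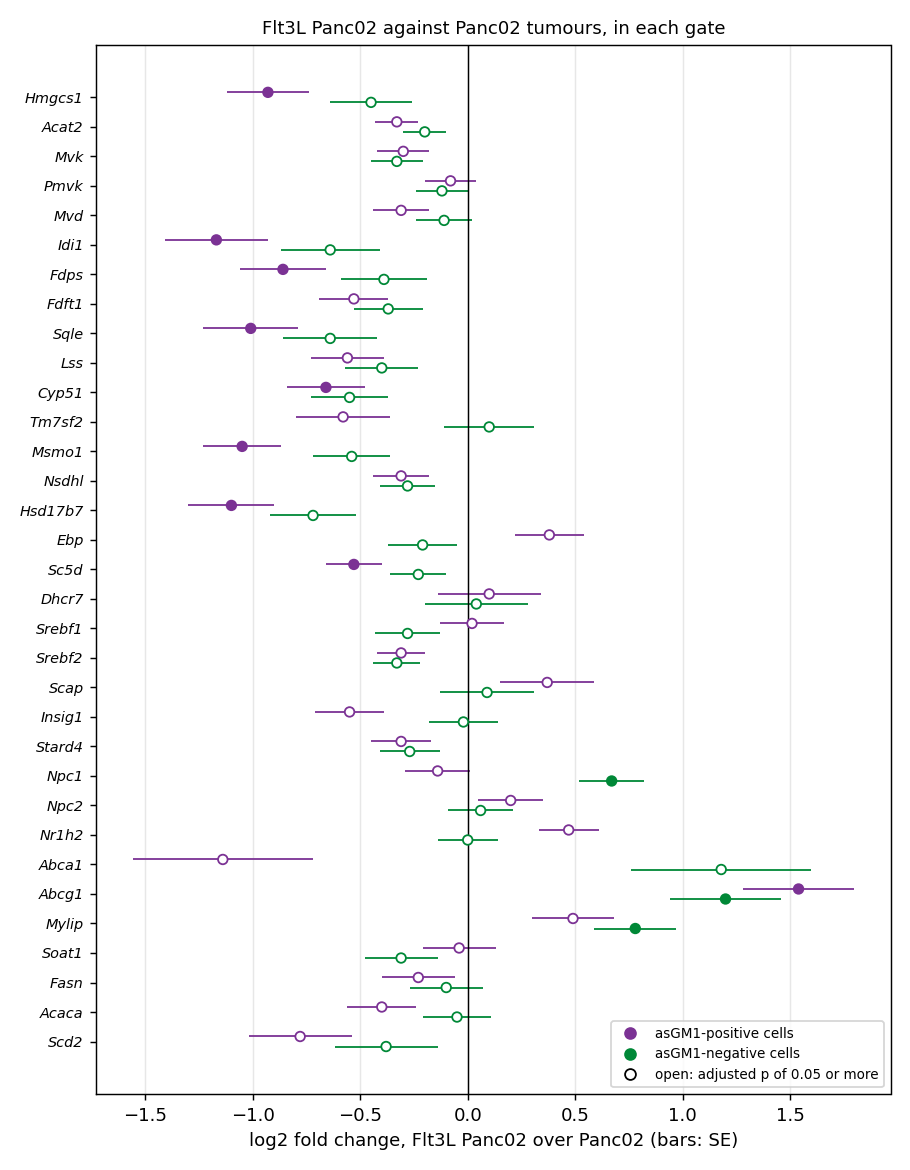
Log2 fold change of each of the 33 genes, Flt3L Panc02 over Panc02 tumours, in asGM1-positive and asGM1-negative cells, with SE bars. Filled points passed an adjusted p under 0.05: 9 genes in asGM1-positive cells and 3 in asGM1-negative cells, with Abcg1 filled in both, at 1.54 and 1.20.

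The tumour comparisons of the asGM1-positive and asGM1-negative cells share no library. Whether they differ was tested as the interaction of gate and tumour, in which 0 of the 33 genes were called by edgeR, against 0.367% of all genes. At an unadjusted p under 0.05 there were 6, Tm7sf2, Ebp, Insig1, Npc1, Nr1h2 and Abca1, beside 3030 of the 20411 genes tested. DESeq2 called 2 of the 33 and 862 genes in all, and limma-voom 3 of the 33 and 786 in all. Both named Npc1 and Abca1. Over the 18 mevalonate and sterol enzymes the interaction was negative for 14, with a median of -0.18 on the log2 scale, beside -0.02 over all genes tested, and none was called. For Npc1 it was -0.81 ± 0.21 (SE; edgeR adjusted p = 0.122) and for Abca1 -2.31 ± 0.60 (edgeR adjusted p = 0.124).

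Between asGM1-positive and asGM1-negative cells of Flt3L Panc02 tumours, 1 of the 33 genes differed: Npc1 was lower in asGM1-positive cells. Among all genes 8.59% were called here, 5.83% lower and 2.77% higher. Npc1 had 26.3, 21.6 and 28.1 CPM in Flt3L Panc02 asGM1-positive libraries, against 41.1, 44.8 and 36.7 CPM in Flt3L Panc02 asGM1-negative libraries. The values did not overlap, and the log2 fold change was -0.69 ± 0.15 (SE; edgeR adjusted p = 0.0161). Without replicate 2 of either group the call was lost, at an adjusted p of at most 0.0684 over all settings. The conventional dendritic cell markers, at 20.8 ± 4.6 CPM against 112.4 ± 5.8 CPM (SD, n = 3 each), with 6 of 7 called lower, and the plasmacytoid ones, at 209.2 ± 12.3 CPM against 1008 ± 65 CPM, with 8 of 10 called lower, moved the same way, and their part was not tested.

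The 18 mevalonate and sterol enzymes split evenly in sign in Flt3L Panc02 tumours, 9 positive and 9 negative, with a median log2 fold change of -0.01, the value of all genes tested, and none called by edgeR. The split varied with the setting, at 12 positive and 6 negative with limma-voom, 8 and 10 with upper quartile factors, and 13 and 5 without asGM1-positive replicate 2 but 6 and 12 without replicate 1. The 16 dividing-cell markers had higher sums in asGM1-positive than asGM1-negative libraries there, at 4004 ± 575 CPM, against 2800 ± 231 CPM (SD, n = 3 each), with 7 of 16 called higher. Ebp had 139.5, 145.5 and 182.6 CPM in Flt3L Panc02 asGM1-positive libraries, against 132.0, 89.5 and 105.4 CPM in Flt3L Panc02 asGM1-negative libraries. It was separated upward, at 0.52 ± 0.16 (SE; edgeR adjusted p = 0.0643). Soat1 had 0.56 ± 0.17 (edgeR adjusted p = 0.0666) with overlap at replicate 3, where it had 45.5 CPM against 73.7 CPM or more in the other asGM1-positive libraries. Abca1 had -1.31 ± 0.43 (edgeR adjusted p = 0.0817), with every asGM1-positive library below every asGM1-negative one.

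In Panc02 tumours 0 of the 33 genes were called between the gates, where 0.892% of all genes were. At an unadjusted p under 0.05 there were 4, Lss, Stard4, Abca1 and Acaca, beside 2040 of the 20411 genes tested. DESeq2 called 0 of the 33 and 598 genes in all, and limma-voom called 1, Lss, and 831 in all. By sign 15 of the 18 mevalonate and sterol enzymes were higher in asGM1-positive cells, with a median log2 fold change of 0.26, beside 0.02 over all genes tested. For 8 of the 18 every asGM1-positive library lay above every asGM1-negative one, where 8.67% of all genes did. Lss had 66.1, 79.9 and 78.9 CPM in Panc02 asGM1-positive libraries, against 61.9, 51.2 and 48.7 CPM in Panc02 asGM1-negative libraries. The groups were apart, at 0.47 ± 0.17 (SE; edgeR adjusted p = 0.324). Idi1 had 0.50 ± 0.23, and Abcg1 pointed the other way at -0.48 ± 0.26, with all asGM1-positive libraries lower.

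Macrophage markers summed to more in the asGM1-positive libraries of Panc02 tumours too, at 1190 ± 701 CPM, against 630 ± 151 CPM (SD, n = 3 each), though none of the 12 was called. Dividing-cell markers had 4515 ± 350 CPM, against 4076 ± 112 CPM, with 0 of 16 called. Fibroblast markers had 120.6 ± 77.4 CPM, against 50.9 ± 23.1 CPM, with 0 of 6 called. Tumour epithelial markers had 67.7 ± 35.3 CPM, against 39.9 ± 7.6 CPM, with 0 of the 4 tested called. The plasmacytoid dendritic cell markers were lower there, at 171.1 ± 14.1 CPM, against 344 ± 25.4 CPM, with 8 of 10 called lower, and the conventional ones had 23.4 ± 7.7 CPM, against 47.9 ± 9.9 CPM, with 1 of 7 called lower. The CD4+ and regulatory T cell markers, with Ctla4 the largest part of the sum, had 213.1 ± 48.3 CPM, against 323.5 ± 81.8 CPM, with 3 of 5 called lower. The part of these cells in the enzyme levels was not tested.

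Averaged over both tumour types, 0 of the 33 genes were called between gates, where 6.19% of all genes were. At an unadjusted p under 0.05 there were 7, beside 4132 of the 20411 genes tested. DESeq2 called 4 of the 33 and 2342 genes in all, and limma-voom 6 of the 33 and 2528 in all. The smallest adjusted p of that average was for Soat1, at a log2 fold change of 0.42 ± 0.12 (SE; edgeR adjusted p = 0.0641).

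**Figure D5:**
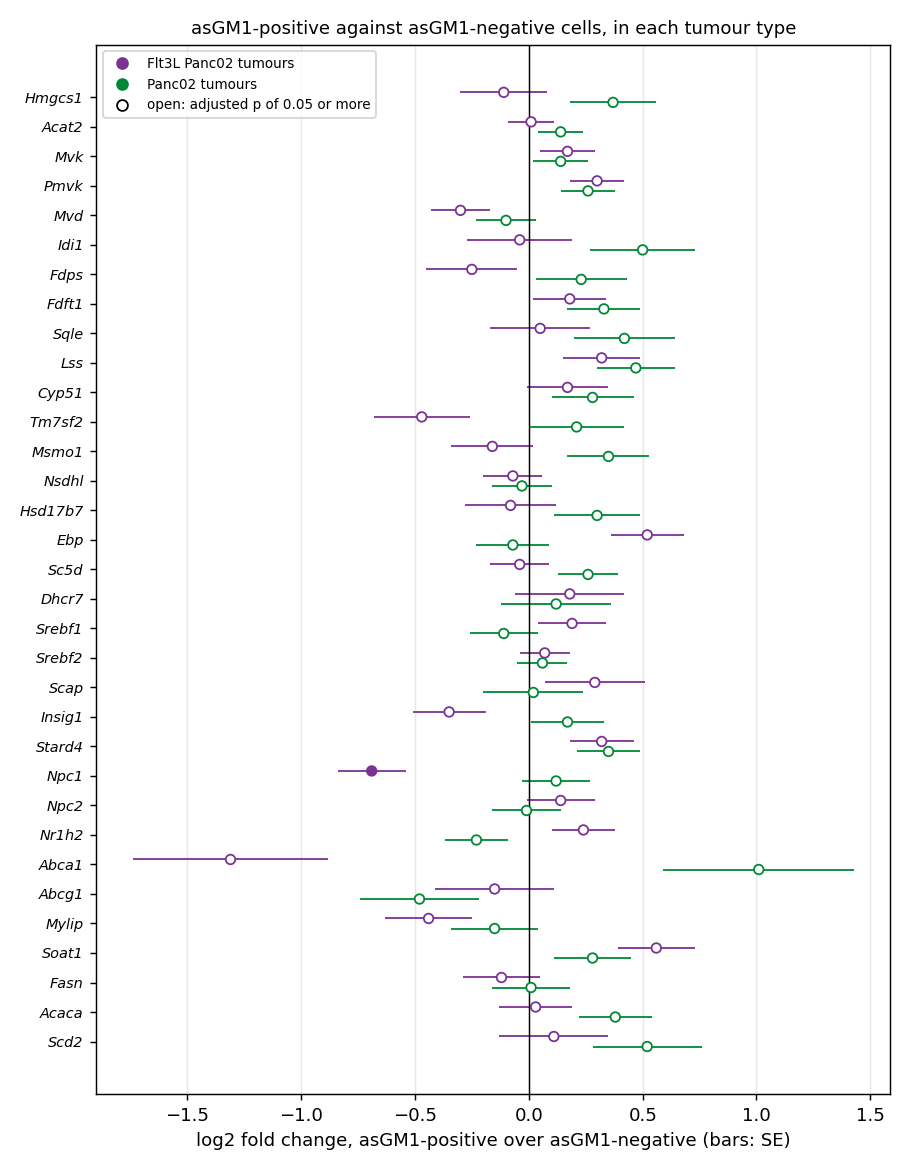
Log2 fold change of each of the 33 genes, asGM1-positive over asGM1-negative cells, in Flt3L Panc02 and in Panc02 tumours, with SE bars. The filled point is Npc1 in Flt3L Panc02 tumours, at -0.69; the points of Abca1 lie on opposite sides of 0, at -1.31 and 1.01.

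Other genes of the pathway were read from lists beside the 33. None of 12 genes of the isoprenoid branches (prenyl transferases, dolichol and coenzyme Q synthesis) and none of 9 further genes of SREBP processing and sterol sensing was called in any comparison by edgeR. Among 10 further genes of sterol transport and hydrolysis, 2 were called between tumours in asGM1-positive cells, where 6.25% of all genes were. Lipa, the lysosomal lipase that frees cholesterol from its esters, had 53.2, 57.7 and 51.0 CPM in Flt3L Panc02 asGM1-positive libraries, against 155.7, 111.3 and 73.9 CPM in Panc02 asGM1-positive libraries. The Panc02 values followed the order of the macrophage marker sums in those 3 libraries. The tumour epithelial, neutrophil and conventional dendritic cell marker sums had that order too, and the part of these cell types was not tested. The log2 fold change of Lipa was -1.07 ± 0.26 (SE; edgeR adjusted p = 0.0378). Stard3, a sterol carrier of late endosomes, was higher at 0.46 ± 0.12 (edgeR adjusted p = 0.0452), and Gramd1b, a carrier from the plasma membrane, was lower in the asGM1-positive gate over both tumour types, where 6.19% of all genes were called, at -0.44 ± 0.09 (edgeR adjusted p = 0.011).

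Of 12 further genes of fatty acid synthesis and activation, Me1, malic enzyme, which supplies NADPH for lipid synthesis, was lower in Flt3L Panc02 tumours in both gates. In asGM1-positive cells 2 of the 12 were called between tumours, where 6.25% of all genes were, and in asGM1-negative cells 2, where 3.7% were. Between gates 2 were called in Flt3L Panc02 tumours, where 8.59% of all genes were, and 1 for the mean of both tumour types, where 6.19% were, namely Me1, higher in asGM1-positive cells at 0.93 ± 0.20 (log2 fold change ± SE; edgeR adjusted p = 0.0203). Me1 had 1.49, 1.02 and 1.34 CPM in Flt3L Panc02 asGM1-positive libraries, against 7.04, 4.63 and 3.38 CPM in Panc02 asGM1-positive libraries. Its log2 fold change was -1.96 ± 0.30 in asGM1-positive cells (SE; edgeR adjusted p = 0.00679) and -1.45 ± 0.29 in asGM1-negative cells (edgeR adjusted p = 0.0248), with no overlap in either. Acsl3, which activates long-chain fatty acids, was lower in asGM1-positive cells at -1.60 ± 0.37 (edgeR adjusted p = 0.0294), and Hacd3, of the elongation cycle, in asGM1-negative cells at -0.42 ± 0.10 (edgeR adjusted p = 0.0426). Within Flt3L Panc02 tumours, asGM1-positive cells had less Elovl6, a fatty acid elongase, at -0.91 ± 0.24 (edgeR adjusted p = 0.0366), and more Hacd3, at 0.44 ± 0.10 (edgeR adjusted p = 0.0201). Me1 and Acsl3, like Lipa, were highest in Panc02 asGM1-positive replicate 1 and lowest of that group in replicate 3. So were the macrophage, tumour epithelial, neutrophil and conventional dendritic cell marker sums, and the part of these cell types was not tested.

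Of 14 genes of fatty acid oxidation, 1 was called between tumours in asGM1-positive cells, where 6.25% of all genes were, and 2 between gates in Flt3L Panc02 tumours, where 8.59% were. Acadvl, which starts the breakdown of very long chains, was higher in Flt3L Panc02 than in Panc02 asGM1-positive cells at 0.37 ± 0.09 (SE; edgeR adjusted p = 0.0372). Acadl and Etfb, a dehydrogenase and an electron carrier of the same route, were higher in the asGM1-positive gate than in the negative gate of Flt3L Panc02 tumours, at 0.32 ± 0.09 (edgeR adjusted p = 0.0471) and 0.61 ± 0.16 (edgeR adjusted p = 0.0345). The other genes of that list were not called in those comparisons.

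Overlapping gene models limit a few of these values, since strandedness is not stated in the labels. In the GENCODE vM21 annotation (GRCm38) 26.7% of the exon bases of Fdps also belonged to Gm43738 on the same strand, 18.3% of those of Fdft1 to Ctsb on the opposite strand, and 12.1% of those of Tm7sf2 to Vps51 on the same strand. For Scap 13.2% were shared with 5830462I19Rik on the opposite strand. For Hmgcs1 12.1% were shared with the antisense model Gm48342, for Idi1 9.22% with Gm48574, for Npc1 4.52% with Rmc1 and for Cyp51 3.76% with Akap9. Idi1 also has processed copies in the genome, and how the counting split reads between them is uncertain.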

How the data were processed

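Bulk RNA-seq of 12 libraries was analysed, grouped by their titles. TRIzol extraction, a TruSeq mRNA kit and a SMARTer low-input kit are named per the labels' protocols. The mm39 build, HISAT2 and StringTie are named per the submitters' processing notes, without versions or annotation. The authors deposited estimated counts per gene (expected counts), already whole numbers. Low values fell in steps of 2.71 counts (2.67 to 2.75 described them equally well), which was taken as the worth of 1 fragment. The floor of 3 fragments is then 8.13 counts, or 0.0802 CPM, and covers counting error only. The 1542 rows without a symbol stayed in the model where they passed the filter and are not named.

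For edgeR 4.0.16 (R 4.3.3), filterByExpr by group, TMM factors and a quasi-likelihood model with 4 group means over 12 libraries were used. A call is an adjusted p (Benjamini-Hochberg) under 0.05, whatever the fold. CPM use TMM-scaled library sizes, and log2 CPM include a prior count of 2. Log2 fold changes include the default prior count of edgeR, and the SE is the unshrunk absolute log2 fold change over the square root of F. Alternatives were DESeq2 1.42.0 size factors and its test, upper quartile factors, no filter, a filter of 5 CPM in 3 libraries, limma 3.58.1 voom with quality weights, a replicate block, fitting only the compared libraries, counts divided by the fragment step, leaving out each library, and leaving out both Panc02 libraries numbered 1. The edgeR step was tested on simulated data.

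The 33 genes, the lists beside them and the markers were chosen with earlier results of these data known. All 33 may be named; called genes are given in full, up to 12 by p in a comparison, of the others those with the largest changes or a call in another comparison, and up to 3 called genes of each further list. Some single genes of the pathway are not analysed here.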

Additional observations from a re-analysis of the deposited data

How the results depend on the processing

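None of the 33 genes that edgeR called in a comparison reversed its direction there under any alternative, and the further pathway genes were not rerun under them. The number of the 33 genes called moved more. Between tumours in asGM1-positive cells 9 became 15 with DESeq2, 22 with limma-voom, 0 in a fit to the compared libraries alone, 4 without both Panc02 libraries numbered 1, and 0 to 11 when 1 library was left out. In asGM1-negative cells 3 became 8 with DESeq2, 14 with limma-voom, 0 with no filter, 0 without both Panc02 libraries numbered 1, and 0 to 6 with 1 library left out. Between gates in Flt3L Panc02 tumours 1 became 4 with DESeq2, 5 with limma-voom and 0 to 4 with 1 library left out. In Panc02 tumours 0 became 1 with limma-voom and stayed 0 in the other runs. For the mean of both tumour types 0 became 4 with DESeq2, 6 with limma-voom and 0 to 4 with 1 library left out. For the interaction 0 became 2 with DESeq2, 3 with limma-voom and stayed 0 with each library left out. Over all genes tested, DESeq2 called 2979 and limma-voom 3120 between tumours in asGM1-positive cells, and 2207 and 3536 in asGM1-negative cells. Between gates they called 3215 and 2805 genes in Flt3L Panc02 tumours, 598 and 831 in Panc02 tumours and 2342 and 2528 for the mean. For the interaction they called 862 and 786 genes. The cause of these moves was not tested, except that the runs without libraries and the fit alone hold fewer samples. Where a run left 2 libraries in a group, that group was assumed to vary like the others in the fit. In the fit alone, the compared groups were assumed to vary like each other.

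The labels do not say what a replicate number marks, so the main fit did not take the numbers as pairs. The correlation r between gates was taken after removing each gene's group mean. For same-numbered libraries r was 0.054, 0.104 and 0.022 in Flt3L Panc02 and 0.284, 0.095 and 0.166 in Panc02 tumours. Between different numbers it was -0.113 to 0.051 and -0.21 to 0.057. Each Panc02 asGM1-positive library thus correlated best with its own number. So did Flt3L Panc02 asGM1-positive replicates 1 and 2, but not 3. This is a hint from the data only. The replicate block gave each number the same effect in both tumour types. Pairs of gates within a tumour type were not fitted, so its counts do not show what such pairing would change. Between tumours, same-numbered libraries of a gate had r of -0.094 to 0.074. With the block 10 genes were called between tumours in asGM1-positive cells, 9 of them shared with the fit without it. In asGM1-negative cells 4 were called, 2 of them shared, with the call of Mylip lost and Hsd17b7 and Sqle called lower. Between gates, 1, 0, 0 and 0 were called in Flt3L Panc02, in Panc02, in their mean and for the interaction. Over all genes tested the count between tumours in asGM1-positive cells lay between 215 and 1737 with 1 library left out and between 1 and 3120 in the other runs, and in asGM1-negative cells between 94 and 959 and between 390 and 3536. Between gates it lay between 768 and 1942 and between 1094 and 3215 in Flt3L Panc02 tumours, and between 94 and 226 and between 107 and 831 in Panc02 tumours. With 3 libraries a group, small changes of single genes may go uncalled, which says nothing of their absence.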
